A study of Caenorhabditis elegans with 18 samples.

Results

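The ATP-binding cassette (ABC) transporter families of the nematode Caenorhabditis elegans were followed through 47 genes, taken as every gene whose single symbol in the array's annotation began with abt-, haf-, mrp-, pgp-, pmp- or wht- and a number, of 25478 genes named this way. They comprised 5 abt, 8 haf, 8 mrp, 14 pgp, 4 pmp and 8 wht genes, each measured by 1 probe set, and no filter on low values was applied, so all 47 were tested. RefSeq's annotation of the assembly WBcel235 lists 51 genes in these families. The pseudogenes abt-3, pgp-15 and wht-9 and the protein-coding gene pmp-4 were not analysed here, and abt-6 is annotated as a pseudogene. The mean signals of abt-1, abt-5, abt-6, haf-8, pgp-13, wht-5 and wht-6 lay below the median of all probe sets, 3.93 on the log2 scale.

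ABC transporters are membrane proteins that use ATP to move lipids, peptides, metal conjugates and toxins across membranes. The pgp genes encode P-glycoproteins, full transporters of the ABCB class, and the haf genes encode half-transporters, most of them of the same class, that work as pairs. The mrp genes (ABCC) encode relatives of the multidrug resistance proteins, which export glutathione conjugates, and the pmp (ABCD), wht (ABCG) and abt (ABCA) genes encode peroxisomal half-transporters, relatives of the fly white protein and relatives of lipid transporters. In this worm, loss of pgp-1 or mrp-1 raises sensitivity to cadmium and arsenite, and several members sit in the intestine or on its lysosome-related gut granules.

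Young adults of the wild-type strain N2 were kept for 48 h at 20 °C in 0.3 g of soil, with Escherichia coli OP50 as food, and whole worms were taken for RNA. All soils carried 2700 mg of lead, 4200 mg of zinc and 310 mg of cadmium per kg, so the control soil was metal-contaminated as well and no group without metals was among the samples. The 6 groups were control soil and soil treated with nanoparticles of zero-valent iron (nZVI), an agent used to immobilise metals, at the sampling times labelled 0 days, 14 days and 4 months, with 3 arrays each. The starting point of these times was not given in the sources used here, and worms of every group had the same exposure. Wells held 7500 to 10000 worms, and each array therefore averaged over many animals and all of their tissues. Separate RNA samples are named for the arrays but separate cultures are not, so the p-values measure the spread between these arrays, which may be technical.

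The 18 arrays had medians of 3.85 to 3.99 on the log2 scale, and arrays of 1 group correlated at 0.97 to 0.996 over all probe sets. Arrays 1 and 3 of control soil at 4 months stood apart, with interquartile ranges of 3.80 and 3.70 against 4.07 to 4.21 on the other 16 arrays. In that group the median standard deviation of the 47 members was 0.443, and in the other 5 groups it ran from 0.159 to 0.223. Array 2 held the highest value of the group in 38 of 47 members and array 1 the lowest in 29. For called members and for those followed over the times, differences that use control soil at 4 months are given with and without arrays 1 and 3. Results at 4 months for genes outside the families and for marker lists are given with all arrays only. How far those results rest on arrays 1 and 3 was not tested.

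**Figure D1:**
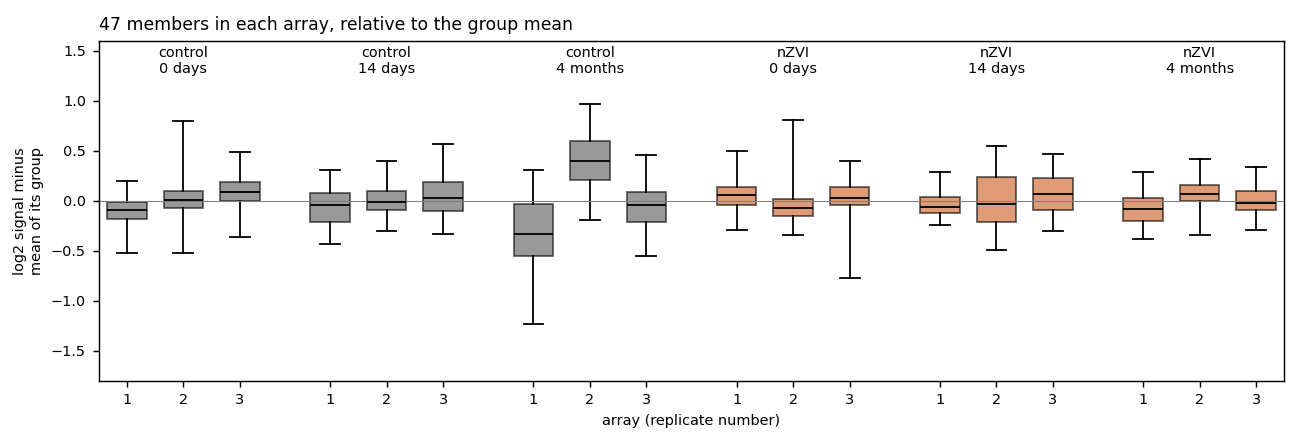
Spread of the 47 members within each group. The horizontal axis gives the arrays by group and replicate number, and the vertical axis gives the log2 signal of each member minus its group mean; boxes span the quartiles, the line is the median and the whiskers reach the lowest and highest member. In control soil at 4 months array 2 lies mostly above and array 1 mostly below the group mean.

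The first question was which transporter genes differed between worms in nZVI soil and worms in control soil. At 0 days 10 members were higher and 7 lower in nZVI soil (limma, adjusted p under 0.05), where 8.22% of all probe sets were higher and 7.74% lower. At 14 days 5 of the 47 were higher and 9 lower, against 3.60% and 5.39% of probe sets. At 4 months 11 were higher and 1 lower, against 4.77% and 2.30%. The shares over all probe sets, here and below, include dim ones, while 40 of the 47 members lay at or above the median signal. They are therefore a low comparison for the members. With dim probe sets left out, 30.9%, 15.7% and 13.2% of probe sets were called in either direction at the 3 times. In those fits 19, 14 and 11 members were called. Averaged over the times, 22 members were called, 14 higher and 8 lower, where 20.1% of probe sets were called in either direction. Without arrays 1 and 3 of control soil at 4 months, 17 members were called for this mean, 7 higher and 10 lower, so that the balance of directions turned. The values of the 3 nZVI and the 3 control arrays did not overlap in 27, 22 and 21 members at the 3 times, where 34.9%, 27.5% and 22.3% of probe sets did not. The median difference over the members was 0.06, 0.03 and 0.28 on the log2 scale, and over all probe sets it was -0.01, 0.04 and -0.03.

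Calls were compared between the times, which share no array but come from the same fit, with 1 standard error per gene at every time. The calls are therefore not independent, since a gene with a small standard error is more easily called at each time. All 7 members lower at 0 days were lower at 14 days (100% of the first list, 77.8% of the second), and over all probe sets 41.1% of those lower at 0 days were lower at 14 days (59.1% of the second list). Of the higher members, 4 were shared by 0 and 14 days (40% of the 10, 80% of the 5), where the probe sets shared 21.5% and 49.1%. Fewer were shared with 4 months, where haf-7 was the member called lower, 14.3% of those lower at 0 days and 11.1% of those lower at 14 days (7.15% and 9.55% of probe sets). The higher members at 4 months shared 3 with 0 days (30% of the 10, 27.3% of the 11) and 3 with 14 days (60% of the 5, 27.3% of the 11), where the probe sets shared 21.3% and 36.8% with 0 days and 43.2% and 32.6% with 14 days. The transporters haf-4, haf-7, haf-9 and pgp-14 were called at all 3 times, 8.51% of members against 1.56% of probe sets. No member was called higher at 1 time and lower at another, where 0.303% of probe sets were, and 19 members (40.4%, against 76.2% of probe sets) were called at no single time.

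**Figure D2:**
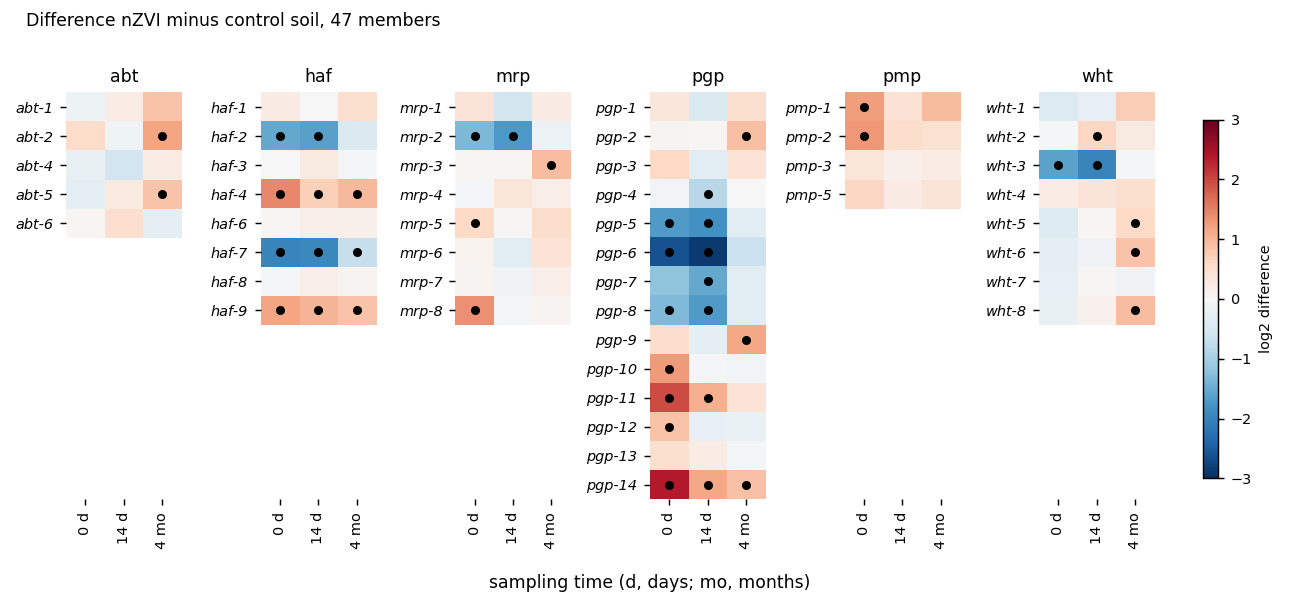
Differences between nZVI and control soil for the 47 members by family. Colour gives the log2 difference (red higher, blue lower in nZVI soil) at 0 days, 14 days and 4 months, and a black dot marks an adjusted p under 0.05, with all 18 arrays in the fit. The block from pgp-5 to pgp-8 is blue at 0 and 14 days and pale at 4 months, and pgp-14, haf-4 and haf-9 are red with a dot at every time.

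The largest fall at 0 and at 14 days was that of pgp-6, one of several neighbouring P-glycoprotein genes. The genes pgp-5, pgp-8, pgp-7 and pgp-6 follow each other in the RefSeq annotation, and close relatives may cross-hybridise on an array. At 0 days pgp-6 stood at 7.89, 8.05 and 7.66 in control soil and at 4.95, 5.21 and 5.57 in nZVI soil on the log2 scale. Its nZVI arrays all lay far below the controls, a difference of -2.62 ± 0.29 (log2 ± SE, 6.16-fold lower, limma adjusted p = 1.07e-05). At 14 days the controls were at 7.83, 8.12 and 8.53 and the nZVI arrays at 5.32, 5.03 and 5.49, again without overlap and with -2.88 ± 0.29 (7.36-fold, adjusted p = 7.88e-06). Because RNA came from whole worms, fewer cells that express a gene and less RNA per cell cannot be told apart here or in any later result. At 4 months pgp-6 read 6.98, 8.50 and 8.01 in control soil and 7.25, 7.36 and 6.93 in nZVI soil. Control array 1 then lay within the nZVI range, and the difference of -0.65 was not called (adjusted p = 0.193). Without control soil arrays 1 and 3 it was -1.32 (adjusted p = 0.0515).

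The gene pgp-5, which protects worms against pathogenic bacteria and heavy metals, had the same course. Control soil at 0 days gave 5.77, 5.89 and 5.80 and nZVI soil 4.08, 4.17 and 4.11, which do not overlap (-1.70 ± 0.34, 3.24-fold lower, adjusted p = 0.00264). The 14-day values were 5.86, 5.92 and 6.33 against 4.00, 4.47 and 4.20, a difference of -1.82 (adjusted p = 0.00224) with no overlap. By 4 months the nZVI arrays, at 5.63, 6.21 and 5.95, lay within the wide control range of 5.00, 7.02 and 6.69 (-0.31, adjusted p = 0.64). That difference was 0.09 without control soil array 2 (adjusted p = 0.886) and -0.93 without control soil array 1, where it was called (adjusted p = 0.0141), and without arrays 1 and 3 it was -1.09 (adjusted p = 0.0524).

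Their neighbour pgp-8 fell at both early times and pgp-7 at 14 days. For pgp-8 the 0-day values were 5.46, 5.47 and 5.49 in control soil against 4.08, 4.49 and 3.88 in nZVI soil, and at 14 days 6.74, 6.87 and 7.46 against 5.10, 5.24 and 5.67. The soils did not overlap at either time, with -1.32 ± 0.30 (adjusted p = 0.00616) and -1.69 (3.23-fold, adjusted p = 0.00134). The 4-month values, 4.83, 6.32 and 5.79 against 4.93, 5.36 and 5.65, overlapped (-0.34, adjusted p = 0.541, and -1.01, adjusted p = 0.238, without control soil arrays 1 and 3). For pgp-7 the difference was -1.21 ± 0.43 at 0 days, not called (adjusted p = 0.0632), -1.54 at 14 days (adjusted p = 0.0295) and -0.35 at 4 months (adjusted p = 0.671, and -1.32, adjusted p = 0.393, without control soil arrays 1 and 3). Its 14-day call was lost in 5 of 6 fits that left out 1 array, without control soil array 1 (adjusted p = 0.103), 2 (0.0528) or 3 (0.0852) or without nZVI soil array 1 (0.0820) or 3 (0.0920). The gene pgp-4, beside pgp-3, was called lower at 14 days (-0.83 ± 0.24, adjusted p = 0.0384). It was not called without control soil array 1 (adjusted p = 0.0528), 2 (0.130) or 3 (0.120), without nZVI soil array 1 (0.0927) or 2 (0.132), or after centring the arrays (0.0595). Of pgp-3, which gives resistance to colchicine and chloroquine, no difference was called, at 0.59, -0.31 and 0.41 for the 3 times.

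Lower members from other families followed the same order of times. The half-transporter gene haf-7 read 9.10, 9.39 and 9.60 in control soil and 7.51, 7.36 and 7.28 in nZVI soil at 0 days. At 14 days it read 9.23, 9.41 and 9.15 against 7.21, 7.50 and 7.28, and at 4 months 9.07, 9.79 and 9.57 against 8.79, 8.82 and 8.73. The soils were apart at each time, and the gap narrowed from -1.98 ± 0.17 (3.94-fold, adjusted p = 8.7e-07) and -1.93 (adjusted p = 3.12e-06) to -0.70 (1.62-fold, adjusted p = 0.0214). The 4-month call was lost without control soil array 3 (adjusted p = 0.0929) or without nZVI soil array 1 (0.0540), 2 (0.0587) or 3 (0.0778), and it was kept without both control soil arrays 1 and 3 (-1.005, adjusted p = 0.0304).

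The values of haf-2, another half-transporter gene, were 10.91, 11.23 and 11.32 in control soil at 0 days and 9.78, 9.47 and 9.65 in nZVI soil. At 14 days they were 11.20, 11.30 and 11.36 against 9.46, 10.03 and 9.50. Neither pair of groups overlapped (-1.52 ± 0.18, adjusted p = 1.93e-05, and -1.62, 3.08-fold, adjusted p = 1.6e-05). At 4 months the values of 11.08, 11.75 and 11.41 against 10.95, 11.06 and 10.96 came close (-0.42, adjusted p = 0.166, and -0.76, adjusted p = 0.192, without control soil arrays 1 and 3).

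The multidrug resistance relative mrp-2, next to mrp-1 in the genome, stood at 7.60, 7.56 and 7.77 in control soil and 6.44, 6.29 and 6.18 in nZVI soil at 0 days. Its 14-day values were 7.96, 8.04 and 8.27 against 6.21, 6.53 and 6.40. Both gaps left the soils well apart, at -1.34 ± 0.21 (2.53-fold, adjusted p = 3.43e-04) and -1.71 (3.27-fold, adjusted p = 5.4e-05). The 4-month values of 6.84, 7.99 and 7.25 against 6.97, 7.30 and 7.28 overlapped (-0.18, adjusted p = 0.666, and -0.81, adjusted p = 0.0917, without control soil arrays 1 and 3).

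The ABCG half-transporter gene wht-3 was at 5.02, 4.95 and 5.31 in control soil and 3.58, 3.41 and 3.46 in nZVI soil at 0 days. It was at 5.91, 5.81 and 5.89 against 3.86, 3.86 and 3.98 at 14 days, and the soils did not overlap at either time. The differences were -1.61 ± 0.24 (3.05-fold, adjusted p = 1.86e-04) and -1.97 (3.92-fold, adjusted p = 4.34e-05). At 4 months the nZVI arrays at 5.03, 5.36 and 5.60 lay among the controls at 4.83, 6.15 and 5.12 (-0.04, adjusted p = 0.952), and without control soil arrays 1 and 3 the difference was -0.82 (adjusted p = 0.105). The calls of pgp-5, pgp-6, pgp-8, haf-2, haf-7, mrp-2 and wht-3 at 0 and 14 days were kept in each of the fits that left out 1 array.

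**Figure D3:**
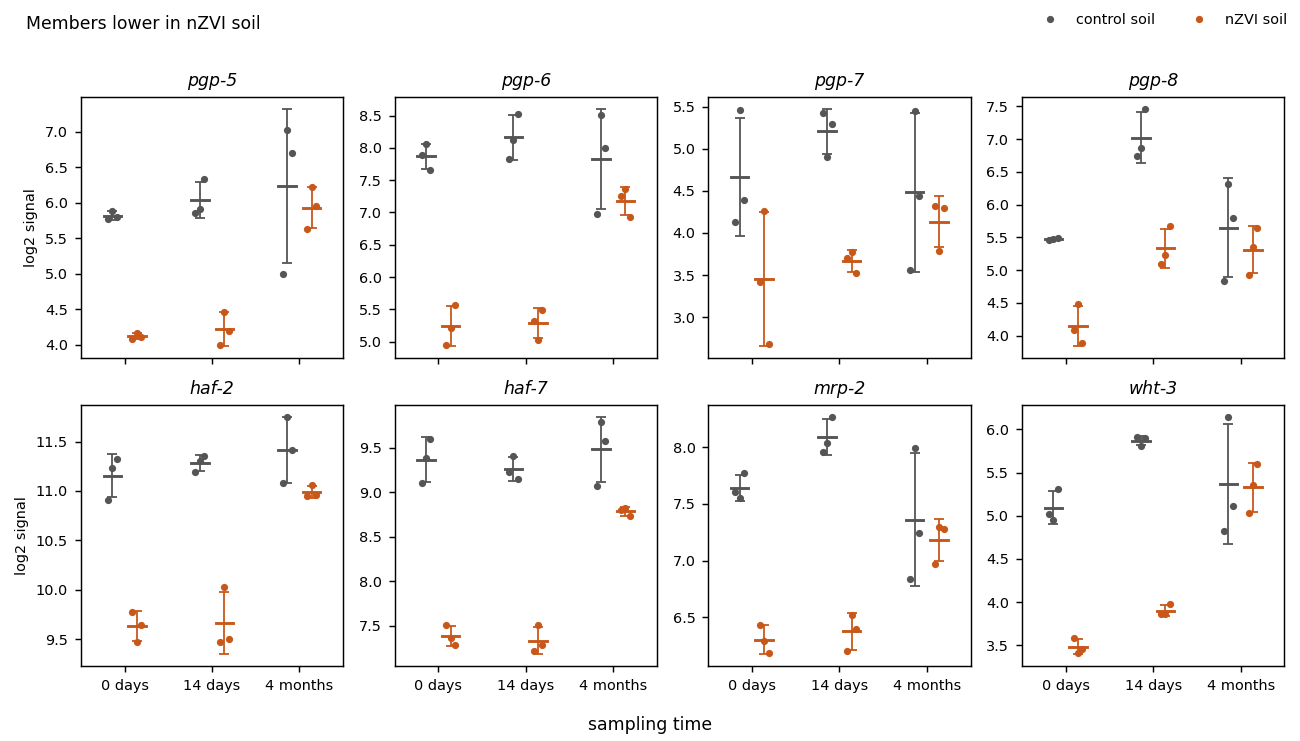
Log2 signal of 8 members that were lower in nZVI soil, by sampling time. Points are single arrays (grey control, orange nZVI soil), the bar is the mean of 3 arrays and the whiskers its SD; the vertical axes differ between genes. At 0 and 14 days the soils are separate in all 8 except pgp-7 at 0 days, and at 4 months the control arrays are spread widely and mostly overlap the nZVI arrays.

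The largest rise was that of pgp-14, a P-glycoprotein gene of the pharynx whose product helps to form a lipid barrier of the pharyngeal cuticle. At 0 days it read 5.91, 6.10 and 6.09 in control soil and 8.60, 8.28 and 8.34 in nZVI soil. At 14 days it read 6.39, 6.25 and 6.09 against 7.38, 7.35 and 7.50, and at 4 months 5.42, 5.60 and 4.69 against 6.17, 6.37 and 5.84. Every nZVI array exceeded every control of its time, and the difference shrank from 2.37 ± 0.20 (5.19-fold, adjusted p = 5.17e-07) to 1.17 (2.24-fold, adjusted p = 9.31e-04) and 0.89 (1.85-fold, adjusted p = 0.0119). The 4-month call was lost without control soil array 3 (0.61, adjusted p = 0.0636) or nZVI soil array 2 (0.77, adjusted p = 0.0654), and without both control arrays 1 and 3 (0.52, adjusted p = 0.437). Pharynx markers moved beside it at 0 days, when 5 of 7 were higher in nZVI soil and their mean log2 signal was 7.47 to 7.74 on the control arrays and 8.34 to 8.72 on the nZVI arrays. At 14 days 1 of the 7 (pha-4) was called lower, while the median difference of the list was 0.41. By limma 5 of the 7 had an unadjusted p under 0.05, and their means were 7.97 to 8.05 and 7.85 to 8.51. At 4 months 2 were higher with means of 6.58 to 7.05 and 7.22 to 7.39. The part of the pharynx markers in the result was not tested.

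The gene pgp-11, which limits sensitivity to ivermectin, rose at the first 2 times. It was at 5.17, 5.72 and 5.47 in control soil and 7.38, 7.46 and 7.37 in nZVI soil at 0 days, and at 5.80, 5.98 and 6.69 against 7.30, 6.90 and 7.48 at 14 days. The soils did not overlap, with differences of 1.95 ± 0.24 (3.86-fold, adjusted p = 2.55e-05) and 1.07 (2.10-fold, adjusted p = 0.00739). At 4 months 5.84, 5.87 and 5.24 stood against 5.80, 6.03 and 6.33, which overlapped (0.40, adjusted p = 0.327, and 0.19, adjusted p = 0.990, without control soil arrays 1 and 3).

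The half-transporters HAF-4 and HAF-9 form a heterodimer in the membrane of gut granules, the lysosome-related organelles of the intestine, and both of their genes were higher at every time. In control soil haf-4 read 7.46, 7.27 and 7.40 at 0 days, 8.10, 8.03 and 7.80 at 14 days and 7.09, 7.42 and 7.41 at 4 months. In nZVI soil it read 8.81, 8.72 and 8.90, then 8.84, 8.48 and 8.75, then 8.37, 8.28 and 8.18. No nZVI array came down to a control of its time, and the differences were 1.43 ± 0.14 (2.70-fold, adjusted p = 2.81e-06), 0.71 (1.64-fold, adjusted p = 0.00276) and 0.97 (1.96-fold, adjusted p = 5.39e-04). All 3 calls were kept whichever single array was left out, and the 4-month call was kept without both control arrays 1 and 3.

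For haf-9 the control values were 6.27, 6.30 and 6.68 at 0 days, 6.70, 6.87 and 7.18 at 14 days and 6.14, 7.21 and 6.74 at 4 months. The nZVI values were 7.42, 7.47 and 7.94, then 7.94, 7.65 and 8.18, then 7.35, 7.54 and 7.77. These ranges were separate at each time, with differences of 1.19 ± 0.24 (adjusted p = 0.00228), 1.01 (adjusted p = 0.0112) and 0.85 (adjusted p = 0.0379). The 14-day call was lost without control soil array 1 (adjusted p = 0.0568) or nZVI soil array 3 (0.0587). At 4 months array 2 of control soil was the lone array whose removal kept the call (adjusted p = 0.0504 to 0.181 without any other of the 6), and without control arrays 1 and 3 the difference was 0.34 (adjusted p = 0.873). Of 10 other gut granule genes 2 were higher at 0 days (glo-4 and apm-3), none called at 14 days (limma, 4 at an unadjusted p under 0.05) and 2 were higher at 4 months (glo-4 and cdf-2). Among intestine markers 5, 4 and 3 of 8 were higher in nZVI soil at the 3 times and none lower. The 14-day calls included mtl-2, which is also in the list of phytochelatin and glutathione supply below. The mean log2 signal of the intestine markers at 0 days was 8.19 to 8.41 on the control and 9.01 to 9.25 on the nZVI arrays. At 14 days the intestine means were 8.63 to 8.74 and 8.89 to 9.22, and at 4 months 7.93 to 8.53 and 8.73 to 8.88. The part of the intestine markers in these results was not tested.

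At 0 days 6 further members were higher. The neighbouring genes pmp-1 and pmp-2 encode peroxisomal half-transporters of the class that brings fatty acids into the organelle, and their differences were 1.26 ± 0.30 (2.39-fold, adjusted p = 0.00882) and 1.31 ± 0.26 (2.48-fold, adjusted p = 0.00246). The other pmp genes were not called, with pmp-5 at 0.63 ± 0.21 (adjusted p = 0.0519) and pmp-3 at 0.36 ± 0.17. Of 9 genes of peroxisome import, catalase and peroxisomal fatty acid oxidation, 7 were higher at 0 days, 3 at 14 days and 5 at 4 months, and none was lower. The list included acox-1.1, an acyl-CoA oxidase of pheromone synthesis (2.17 ± 0.23, adjusted p = 6.15e-06 at 0 days), and the thiolase gene daf-22 (2.02 ± 0.22, adjusted p = 8.57e-06). At 14 days and 4 months limma called no pmp gene (0 and 1 of 4 at an unadjusted p under 0.05), with pmp-1 at 0.43 and 0.94 (adjusted p = 0.488 and 0.0687) and pmp-2 at 0.52 and 0.45 (adjusted p = 0.290 and 0.319). Without control soil arrays 1 and 3 the 4-month differences of pmp-1 and pmp-2 were both 0.16 (adjusted p = 0.997 and 0.992).

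The other members called higher at 0 days alone among the times were mrp-8 (1.37 ± 0.22, 2.58-fold, adjusted p = 3.13e-04), pgp-10 (1.29 ± 0.23, 2.44-fold, adjusted p = 9.86e-04), pgp-12, a gene of the excretory cell (0.85 ± 0.22, adjusted p = 0.0129), and mrp-5. The last encodes an intestinal exporter of heme and read 8.42, 8.48 and 8.70 in control soil against 9.16, 8.97 and 9.23 in nZVI soil. Those groups did not overlap (0.59 ± 0.16, 1.5-fold, adjusted p = 0.0178), but the call was lost without control soil array 1 (adjusted p = 0.0766), control soil array 2 (0.0607) or nZVI soil array 3 (0.0737). At 14 days mrp-5 read 9.12, 9.11 and 9.09 against 9.13, 9.11 and 9.18, and at 4 months 7.99, 8.73 and 8.16 against 8.76, 8.88 and 8.79. The 14-day ranges overlapped (0.03, adjusted p = 0.947) and the 4-month ranges did not (0.52, adjusted p = 0.0581). With the replicate number as a block the 4-month difference passed the threshold (adjusted p = 0.0498), and without control soil arrays 1 and 3 it was 0.08 (adjusted p = 0.996). The pgp-12 call was lost without control soil array 1 (adjusted p = 0.0663) or nZVI soil array 3 (0.0802). Of 5 excretory cell markers 1 was higher at 0 days, with means of 7.30 to 7.50 on the control and 7.74 to 7.84 on the nZVI arrays, and their part in the pgp-12 result was not tested. At 14 days wht-2 was the member called higher that had not been called at 0 days (0.62 ± 0.15, adjusted p = 0.0124), a call lost without control soil array 3 (adjusted p = 0.0670) or nZVI soil array 2 (0.0515) and in the fit on the compared groups alone (0.0558).

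**Figure D4:**
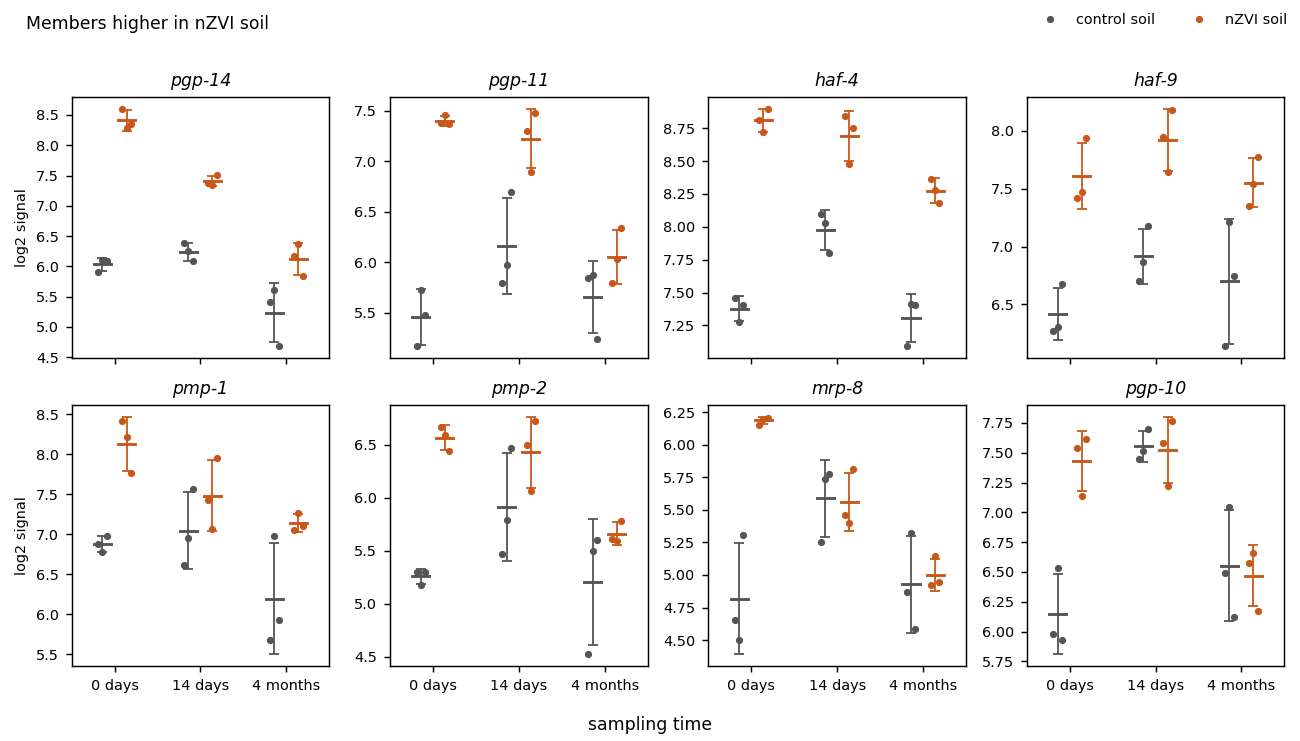
Log2 signal of 8 members that were higher in nZVI soil at 0 days, by sampling time. Points are single arrays (grey control, orange nZVI soil), the bar is the mean of 3 arrays and the whiskers its SD; the vertical axes differ between genes. The nZVI arrays lie above the controls at 0 days in all 8 genes, and pgp-14, haf-4 and haf-9 keep a gap at 14 days and 4 months.

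At 4 months 8 members were called higher that had not been called at the earlier times. The ABCA gene abt-2 read 5.34, 6.57 and 6.10 in control soil and 7.19, 7.21 and 7.17 in nZVI soil, with no overlap (1.19 ± 0.23, 2.28-fold, adjusted p = 0.00457). Its call was kept whichever single array was left out and lost without both control arrays 1 and 3 (0.62, adjusted p = 0.302). For pgp-9, another gene of ivermectin sensitivity, 6.08, 7.85 and 6.90 in control soil stood below 8.13, 8.17 and 8.02 in nZVI soil (1.17 ± 0.28, 2.25-fold, adjusted p = 0.0169). This call was lost without control soil array 1 (0.74, adjusted p = 0.0647), control soil array 3 (adjusted p = 0.0688) or nZVI soil array 2 (0.0610), and without both control soil arrays 1 and 3 the difference was 0.26 (adjusted p = 0.811). The gut granule transporter gene pgp-2 read 5.87, 6.74 and 6.45 against 6.90, 7.49 and 7.35 (0.89 ± 0.22, adjusted p = 0.0184). The ranges of pgp-2 were separate, and its call was lost without control soil array 1 (adjusted p = 0.0976) or 3 (0.0525) or nZVI soil array 2 (0.0903) or 3 (0.0747), with 0.50 (adjusted p = 0.646) without both of those control arrays. The ABCG gene wht-8 read 3.42, 4.69 and 4.12 against 4.88, 5.25 and 4.85 (0.92 ± 0.24, adjusted p = 0.0307). Its lowest nZVI array lay just above the highest control, and without any single array other than control soil array 2 its adjusted p was 0.0561 to 0.145. Without both control soil arrays 1 and 3 the difference of wht-8 was 0.31 (adjusted p = 0.872).

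The remaining 4 calls at 4 months were abt-5 (0.85), mrp-3 (0.93), wht-5 (0.59) and wht-6 (0.86). The soils overlapped in mrp-3, and each of the 4 calls was lost without control soil array 1 (adjusted p = 0.0844 to 0.148), control soil array 3 (0.101 to 0.171) or nZVI soil array 2 (0.0798 to 0.155). Without both of those control arrays the differences were 0.64 for abt-5, 0.19 for mrp-3, 0.36 for wht-5 and 0.43 for wht-6 (adjusted p = 0.644 to 0.946). With the replicate number as a block wht-5 was not called (adjusted p = 0.0592). The number of members called at 4 months was 6 without control soil array 1, 20 without control soil array 2 and 2 without control soil array 3, and 6, 2 and 5 without nZVI arrays 1, 2 and 3. Over all probe sets the calls moved too, from 7.08% with all arrays to 3.42%, 19.1%, 2.72%, 5.07%, 3.54% and 3.46% in the same order. Fitted on the 6 arrays of 4 months alone the number of members called was 1 (haf-4), where 1.35% of probe sets were called. Without both control arrays 1 and 3 the number was smaller as well, in a fit that leaves 1 control array. At 0 days leaving out any array gave 15 to 18 members (9.96% to 14.8% of probe sets) and at 14 days 11 to 12 (5.50% to 9.91%).

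The genes mrp-1, pgp-1, haf-1 and pmp-3 were not called at any single time. For mrp-1 the control and nZVI values were 7.99, 8.27 and 8.48 against 8.69, 8.55 and 8.65 at 0 days, 9.01, 8.83 and 8.66 against 8.36, 8.07 and 8.44 at 14 days, and 7.63, 8.52 and 8.05 against 8.22, 8.25 and 8.47 at 4 months. The nZVI arrays lay above the controls at 0 days (0.38 ± 0.19, adjusted p = 0.211), below them at 14 days (-0.55, adjusted p = 0.0971) and among them at 4 months (0.24, adjusted p = 0.485, and -0.21, adjusted p = 0.940, without control soil arrays 1 and 3). Array weights made the 14-day difference of mrp-1 pass the threshold (adjusted p = 0.00687).

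For pgp-1 the values were 5.59, 5.60 and 5.66 against 6.16, 5.75 and 5.98 at 0 days, 6.52, 6.62 and 6.45 against 6.06, 5.89 and 6.33 at 14 days, and 4.93, 6.16 and 5.03 against 6.03, 5.82 and 5.75 at 4 months. The order of the soils was the same as in mrp-1, with 0.35 ± 0.24 (adjusted p = 0.377), -0.44 (adjusted p = 0.332) and 0.49 (adjusted p = 0.228). The 14-day difference of pgp-1 was called with array weights (adjusted p = 0.0245), and the 4-month difference without control soil array 2 (0.88, adjusted p = 0.00124), and the latter was -0.30 without arrays 1 and 3 (adjusted p = 0.803).

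The mitochondrial peptide exporter gene haf-1, which acts in the mitochondrial stress response, read 5.41, 5.32 and 5.43 against 5.93, 5.35 and 5.62 at 0 days, 5.26, 5.63 and 6.17 against 5.58, 5.61 and 5.94 at 14 days, and 4.99, 5.88 and 5.12 against 5.63, 5.91 and 5.88 at 4 months. The soils overlapped at each time, and no difference was called (0.25 ± 0.24, 0.02 and 0.47, adjusted p = 0.557, 0.974 and 0.240), except at 4 months without control soil array 2 (0.75, adjusted p = 0.0280). Without arrays 1 and 3 the 4-month difference of haf-1 was -0.07 (adjusted p = 0.999). The gene pmp-3, often used as a reference in expression work, read 8.51, 8.42 and 8.81 against 8.90, 8.85 and 9.08, then 8.71, 8.82 and 8.27 against 8.89, 8.76 and 8.63, then 8.70, 8.78 and 8.27 against 8.73, 8.86 and 8.86. Its ranges were separate at 0 days and overlapped later, and it was not called (0.36, 0.16 and 0.23, adjusted p = 0.171, 0.683 and 0.444, the last 0.03 without control soil arrays 1 and 3). The 19 members called at no single time had differences between -0.57 and 0.86. They included mrp-7 and haf-6, a gene needed for efficient RNA interference.

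The next question was whether the nZVI difference changed between the sampling times. Between 0 days and 4 months the nZVI difference changed in 12 members, toward higher values in 8 and lower in 4, where 2.96% and 1.35% of probe sets were. The negative differences of pgp-6, wht-3, haf-7, mrp-2 and haf-2 shrank, by 1.98 ± 0.41, 1.57 ± 0.34, 1.28 ± 0.24, 1.16 ± 0.30 and 1.1 ± 0.26 on the log2 scale (adjusted p = 0.00756 to 0.0382). The positive differences of pgp-11, pgp-14, pgp-10 and mrp-8 shrank as well, with changes of -1.55 ± 0.34, -1.49 ± 0.28, -1.37 ± 0.33 and -1.29 ± 0.31 (adjusted p = 0.00704 to 0.0256). The other 3 were wht-1 (1.15), wht-5 (0.96) and wht-6 (1.15). Without control arrays 1 and 3 of 4 months the count was 4, all of them toward lower values. Between 14 days and 4 months 5 members changed, all toward higher values (1.17% of probe sets higher and 0.190% lower), namely pgp-6 (2.23 ± 0.41), wht-3 (1.93), mrp-2 (1.53), haf-7 (1.23) and haf-2 (1.2), and without the same 2 arrays none was called by limma (10 members at an unadjusted p under 0.05). Leaving out single arrays gave 6 (without control soil array 1 of 0 days) to 22 members (without control soil array 2 of 4 months) for the first of these changes and 2 (without control soil array 2 of 14 days) to 21 (without control soil array 2 of 4 months) for the second. Those fits called 2.59%, 12.2%, 0.278% and 13.3% of probe sets. Of 12 such fits the first change was lost in 10 for wht-1 and in 9 for mrp-2 and wht-6. The second was lost in 10 for haf-2 and in 5 for mrp-2. Between 0 and 14 days the changes of mrp-8 (-1.40 ± 0.31) and pgp-14 (-1.21 ± 0.28) were called, where 0.518% of probe sets changed toward lower and 0.535% toward higher values, and 0 to 1 were called when an array was left out (8 members at an unadjusted p under 0.05 without control soil array 1 of 0 days, where limma called none).

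Within nZVI soil the families were compared between sampling times, in fits that share the nZVI arrays with the comparisons above. From 0 days to 4 months 18 members rose and 8 fell, where 12.0% of probe sets rose and 10.2% fell. The members that were low in nZVI soil at 0 days rose, with pgp-6 at 1.94 ± 0.29 (adjusted p = 1.84e-04), wht-3 at 1.84 ± 0.24 (adjusted p = 4.55e-05) and pgp-5 at 1.81 ± 0.34 (adjusted p = 0.00119). The transporter pgp-14 fell by 2.29 ± 0.20 (adjusted p = 5.47e-07), from a mean of 8.41 to 6.12. From 14 days to 4 months 11 rose and 3 fell, against 4.21% and 4.33% of probe sets, with pgp-6 at 1.90, pgp-5 at 1.71, haf-7 at 1.45 and wht-3 at 1.43. The first count was 17 without nZVI soil array 2 of 4 months (14.5% of probe sets), and the second 9 without nZVI soil array 3 of 14 days (3.83%). From 0 to 14 days pgp-8 (1.18 ± 0.30) and mrp-4 (0.63 ± 0.15) rose and pgp-14 fell by 1.00 ± 0.20, where 4.13% of probe sets rose and 4.67% fell. The values of mrp-4, a gut granule transporter gene, were 8.42, 8.50 and 8.74 at 0 days and 9.09, 9.41 and 9.04 at 14 days, without overlap. Its call was lost without nZVI soil array 1 (0.0606) or 2 (adjusted p = 0.0549) of 0 days or nZVI soil array 2 of 14 days (0.0526). The pgp-8 call was lost without nZVI soil array 1 (adjusted p = 0.0692) or 3 (0.0678) of 0 days or nZVI soil array 3 of 14 days (0.0870).

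Among the wht genes rises in nZVI soil were called between the early times and 4 months. From 0 days to 4 months 7 of 8 wht genes rose, namely wht-1 (0.78), wht-3 (1.84), wht-4 (0.56), wht-5 (0.68), wht-6 (1.22), wht-7 (0.55) and wht-8 (0.89), where 12.0% of all probe sets rose, and wht-2 was at 0.33 and not called. From 14 days to 4 months 5 of the 8 rose, where 4.21% of probe sets did, with differences of -0.12 to 1.43 over the 8. In control soil the family's median change from 0 days to 4 months was 0.03 and none was called by limma (1 at an unadjusted p under 0.05). That result includes control soil arrays 1 and 3 of 4 months. On control soil array 2 of 4 months wht-3 (6.15), wht-6 (4.20), wht-7 (7.87) and wht-8 (4.69) exceeded every control array of 0 days. The same held for wht-4 (4.75), and wht-5 (3.85) lay within the 0-day range. The other 2 were near ties with the highest 0-day control, wht-1 at 5.2754 against 5.2735 and wht-2 at 6.5534 against 6.5516. Germline markers moved over the same interval, with 9 of 9 higher in nZVI soil at 4 months than at 0 days and means of 7.71 to 8.31 on the 0-day and 9.04 to 9.22 on the 4-month arrays. Pharynx markers were lower in 5 of 7, with means of 8.34 to 8.72 and 7.22 to 7.39. Control soil moved the same way over this interval. Its germline means were 8.57 to 8.745 and 8.91 to 9.08, and its pharynx means 7.47 to 7.74 and 6.58 to 7.05. The part of either marker list in the changes of the wht genes or of pgp-14 was not tested.

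**Figure D5:**
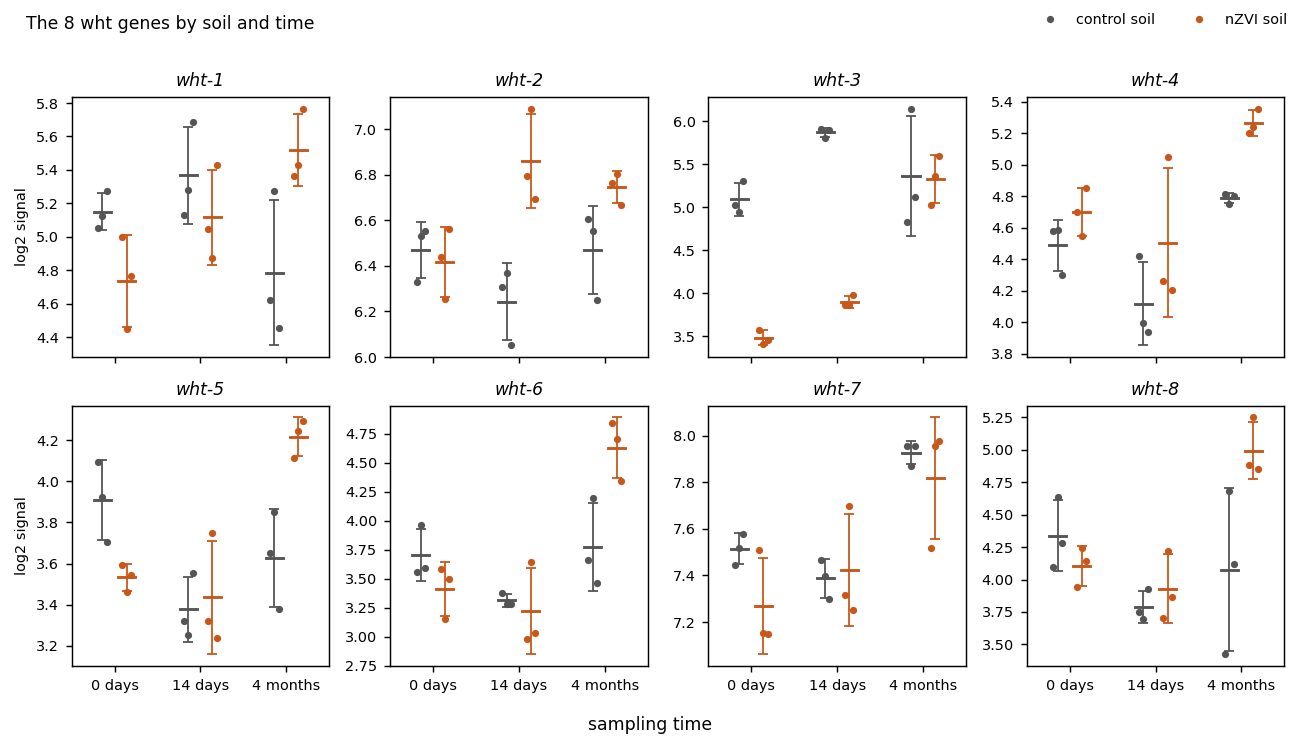
Log2 signal of the 8 wht genes by soil and sampling time. Points are single arrays (grey control, orange nZVI soil), the bar is the mean of 3 arrays and the whiskers its SD; the vertical axes differ between genes. In nZVI soil wht-1, wht-3, wht-4, wht-5, wht-6, wht-7 and wht-8 are higher at 4 months than at 0 days, and wht-3 is far below its controls at 0 and 14 days.

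In control soil 2 of the 47 members were lower at 4 months than at 0 days and none was higher, where 6.33% of probe sets were lower and 3.38% higher. These were abt-2 (-0.86 ± 0.23) and pgp-14 (-0.80 ± 0.20), and neither was called without control arrays 1 and 3 of 4 months (-0.29, adjusted p = 0.578, and -0.43, adjusted p = 0.336). Without those arrays array 2 alone is left, which held the highest value of its group in 38 of 47 members. On it abt-4, pgp-5 and wht-3 were higher than the 0-day mean by 0.85, 1.204 and 1.055. The number of members called was 9 without control soil array 2 of 4 months, where 18.5% of probe sets were called. It was 0 without control soil array 2 of 0 days (limma, 6 at an unadjusted p under 0.05), where 5.71% were. From 0 to 14 days 7 members rose and 1 fell, against 5.80% and 6.08% of probe sets, and the count ran from 2 without control soil array 2 of 0 days (4.32% of probe sets) to 12 without control soil array 3 of 0 days (11.4%). The largest were pgp-8 (1.55 ± 0.30, adjusted p = 0.005), pgp-10 (1.41 ± 0.23, adjusted p = 0.00261), pgp-1 (0.91 ± 0.24, adjusted p = 0.0204) and wht-3 (0.78 ± 0.24, adjusted p = 0.0436). In pgp-10 the control arrays went from 5.98, 6.53 and 5.93 to 7.45, 7.51 and 7.70, without overlap. The call of wht-3 was lost when any single array of 0 or 14 days other than control soil array 3 of 0 days was left out (adjusted p = 0.0975 to 0.151), and that of pgp-1 without array 1 (adjusted p = 0.0680) or 2 (0.0727) of 0 days or array 1 (0.0548) or 2 (0.0759) of 14 days. From 14 days to 4 months 4 rose and 12 fell, against 8.90% and 12.0% of probe sets, led by abt-2 (-1.56 ± 0.23), pgp-8 (-1.38), pgp-9 (-1.28) and pgp-1 (-1.15). Without control soil arrays 1 and 3 of 4 months abt-2 was still called (-0.99, adjusted p = 0.0343), and pgp-8 (-0.70, adjusted p = 0.338), pgp-9 (-0.38, 0.362) and pgp-1 (-0.37, 0.439) were not. The number of members called from 14 days to 4 months was 2 in the fit on the compared groups alone (6.86% of probe sets). It was 10 without control soil array 2 of 14 days (11.6%) and 25 without control soil array 2 of 4 months (32.2%).

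Other ABC genes outside the 6 families gave 1 higher and 2 lower of 10 at 0 days, 1 lower at 14 days and none called at 4 months (limma, 1 at an unadjusted p under 0.05). The half-transporter gene hmt-1, needed for tolerance of cadmium with phytochelatins, was -1.66 ± 0.19 at 0 days (adjusted p = 1.16e-05), -1.69 at 14 days (adjusted p = 1.52e-05) and -0.54 at 4 months (adjusted p = 0.0872). The others called at 0 days were cft-1 (1.14 ± 0.26, adjusted p = 0.00592) and abcf-1, of a class without membrane spans that acts in translation (-0.85 ± 0.17, adjusted p = 0.00274). Of 8 genes of phytochelatin and glutathione supply, a list that holds hmt-1 too, 5 were lower at 0 days, 4 lower and 2 higher at 14 days and 1 higher at 4 months. The enzyme gene gcs-1, which limits glutathione synthesis, was -1.26 ± 0.15 (adjusted p = 2.24e-05), -1.15 (adjusted p = 9.85e-05) and -0.48 (adjusted p = 0.0651).

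Among 9 measured regulators of xenobiotic and metal genes 2 were higher and 1 lower at 0 days, 1 was lower at 14 days and 1 higher at 4 months. The oxidant response regulator skn-1 was -0.46 ± 0.16 (adjusted p = 0.0535), -0.72 (adjusted p = 0.0061) and 0.02 (adjusted p = 0.949). The nuclear receptor gene nhr-8, which acts in toxin resistance, was 1.15 ± 0.21 at 4 months (adjusted p = 0.00358). As for the other listed genes at 4 months, this value was not tested without control soil arrays 1 and 3. Of 8 mitochondrial stress genes, among them the partner pathway of haf-1, 1 was lower at 0 days (atfs-1) and none was called later by limma (1 and 2 at an unadjusted p under 0.05). Of 9 reference genes for expression work, pmp-3 among them, 2 were lower at 0 days (cdc-42 and tbp-1) and none was called by limma at the later times (4 and 1 at an unadjusted p under 0.05). Moulting markers were higher in 5, 2 and 4 of 11 at the 3 times, and yolk protein genes in 2 of 5 at 14 days and 3 at 4 months. Germline markers were called lower in 3 of 9 at 0 days, with a median difference of -0.59 over the list. Their means were 8.57 to 8.745 on the control and 7.71 to 8.31 on the nZVI arrays. By limma 9 of the 9 had an unadjusted p under 0.05 at 0 days and 0 at each later time. Epidermis markers gave 1 higher and 2 lower of 5 at 0 days, 3 higher at 14 days and 2 higher at 4 months, and muscle markers 1, 2 and 1 higher of 6. None of 6 neuron or 4 sperm markers was called between the soils by limma (before adjustment 1 of each at 0 days had a p under 0.05). The part of these markers in the members' results was not tested.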

How the data were processed

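Whole-worm RNA was hybridised to 1-colour C. elegans Gene 1.0 ST arrays after WT PLUS labelling, 1 array per sample, per the labels' protocols. The authors deposited log2 expression values per probe set, made by robust multi-array averaging (RMA) in the Transcriptome Analysis Console per the submitters' processing notes; for these tools no version, and for the array no genome build, is given in the sources used here. The RMA step subtracts background and makes the distributions of the arrays alike, so a shift of most genes in 1 direction would not be seen. Scanner files were not used here, so no level of detection was set, and the 3 arrays per group limit the precision.

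The deposited log2 values of 28387 probe sets were fitted in R 4.3.3 with limma 3.58.1 (lmFit, contrasts.fit, eBayes), with 1 coefficient per group over all 18 arrays and hence 1 standard error per gene at every time. The Benjamini-Hochberg adjustment of the two-sided p-values ran over every probe set within each of 13 comparisons, with 0.05 as the threshold for a call. These were the soils compared per time and as a mean over times, the changes of the nZVI difference from one time to another, and the times compared inside each soil. Scripts were tested on simulated data.

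Genes were named from the platform annotation, in which 25546 probe sets had 1 symbol, 646 several and 2195 none; all 47 members matched RefSeq by gene identifier. The members and all lists were chosen with earlier results of these data known, so a list's count is a description. Values in every array were given for up to 6 members with the largest difference among called members whose groups did not overlap at each time, members called at 2 or more times, and mrp-1, pgp-1, pgp-5, mrp-5, haf-1, pmp-3 and pgp-14; up to 4 members were named per comparison of times, and others were named after their values were seen. Alternatives were centring, a filter on dim probe sets, another variance model, array weights, a replicate block, the compared groups alone, the mean of a gene's probe sets and leaving out each array; leaving out control arrays 1 and 3 of 4 months was chosen after seeing the data.

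Groups share replicate numbers in the labels. Deviations from the group mean correlated between same-numbered arrays of the soils at 0.374, 0.28 and 0.104 at 4 months, where every value passed 0.1 and the numbers were taken to pair the arrays. The same held within nZVI soil between 14 days and 4 months (0.108, 0.153 and 0.209). Every other combination held a correlation under 0.1, and no pairing was taken there, although single values ran from -0.337 to 0.226. A cut at 0.1 is a weak ground for a pairing, and the main fit used none.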

Additional observations from a re-analysis of the deposited data

Results flagged for a closer look

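The difference between nZVI and control soil itself changed between sampling times for 12 members, by an interaction contrast in limma, which makes 19 changes in all. From 0 to 14 days the difference changed by -1.4 for mrp-8 and -1.21 for pgp-14 on the log2 scale (adjusted p = 0.0349 and 0.0483). Of 12 fits that left out 1 array, 9 lost the call of mrp-8 and 12 that of pgp-14.

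From 0 days to 4 months the negative differences of pgp-6, wht-3, haf-7, mrp-2 and haf-2 changed by 1.98, 1.57, 1.28, 1.16 and 1.1, and the differences of wht-1, wht-5 and wht-6 by 1.15, 0.96 and 1.15. Those of pgp-11, pgp-14, pgp-10 and mrp-8 changed by -1.55, -1.49, -1.37 and -1.29. The calls of haf-7, pgp-6, pgp-11, pgp-14 and wht-3 were kept whichever single array was left out. Of 12 such fits the call was lost in 10 for wht-1, 9 for mrp-2 and wht-6 and 7 for wht-5. It was lost in 6 for mrp-8, 5 for haf-2 and 4 for pgp-10. Without control arrays 1 and 3 of 4 months the negative changes were still called and the positive changes were not, with pgp-6 at 1.30 (adjusted p = 0.0957), haf-7 at 0.97 (0.067) and wht-3 at 0.79 (0.172).

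From 14 days to 4 months the changes were 2.23 for pgp-6, 1.93 for wht-3, 1.53 for mrp-2, 1.23 for haf-7 and 1.2 for haf-2, and those of pgp-6 and wht-3 were kept whichever single array was left out. Of 12 such fits the call was lost in 10 for haf-2, 5 for mrp-2 and 3 for haf-7. Without control arrays 1 and 3 of 4 months these changes of pgp-6 and wht-3 were smaller, at 1.56 and 1.15, and not called. Both sets of changes share the 4-month arrays.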

How the results depend on the processing

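Counts of called members that moved by more than 1.5 times were these; the cause was not tested. With array weights the change of the nZVI difference gave 6 members for 14 days minus 0 days and 20 for 4 months minus 14 days, control soil at 14 days against 0 days gave 27, nZVI soil at 4 months against 14 days gave 22, and nZVI against control at 14 days gave 22. The 14-day minus 0-day change gave 1 after centring and 0 with a trended, robust variance (limma, 13 at an unadjusted p under 0.05). Of all probe sets 0.948% and 0.902% were called in those fits. Fits on the compared groups alone gave 1 for nZVI against control at 4 months, and in control soil 14 for 14 days against 0 days, 0 for 4 months against 0 days (limma, 3 at an unadjusted p under 0.05) and 2 for 4 months against 14 days. Those fits called 1.35%, 17.8%, 2.62% and 6.86% of all probe sets in the same order. Without control arrays 1 and 3 of 4 months the lone control array is assumed to vary like the other groups. In that fit the counts fell for nZVI against control at 4 months, for both changes to 4 months and for control soil at 4 months against 14 days.

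Leaving out 1 array gave 15 to 18 members for nZVI against control at 0 days, 11 to 12 at 14 days, 2 to 20 at 4 months and 18 to 29 for the mean. The shares of all probe sets called were 9.96% to 14.8%, 5.50% to 9.91%, 2.72% to 19.1% and 16.9% to 24.3%. Such fits gave 0 to 1, 6 to 22 and 2 to 21 members for the changes to 14 days, from 0 days to 4 months and from 14 days to 4 months. The shares were 0.546% to 1.30%, 2.17% to 12.2% and 0.278% to 13.3%. Control soil gave 2 to 12, 0 to 9 and 10 to 25 members (14 days against 0 days, 4 months against 0 days, 4 months against 14 days), with shares of 4.32% to 11.4%, 4.59% to 18.5% and 9.77% to 32.2%. In the same order nZVI soil gave 1 to 3, 17 to 21 and 9 to 17, with shares of 4.42% to 8.41%, 14.5% to 19.6% and 3.43% to 16.1%.

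Differences that changed sign were uncalled with all arrays. At 14 days haf-1 was -0.1905, -0.005897 and -0.08928 without control array 1, control array 2 and nZVI array 3 and ran up to 0.2667, and pmp-3 was -0.004847 without control array 3 and ran up to 0.2728. At 4 months pgp-5 ran from -0.9253 to 0.08616, the latter without control array 2. Without control arrays 1 and 3, haf-1, mrp-1 and pgp-1 were -0.07036, -0.2072 and -0.2999.

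The replicate block gave 20, 14 and 15 members for nZVI against control at the 3 times and 23 for the mean, and moved no count by over 1.5 times. Of all probe sets it called 17.9%, 10.1%, 9.06% and 22.3% in these comparisons. The block kept all 14 calls for nZVI soil at 4 months against 14 days, where the numbers were taken to pair the arrays. For nZVI against control at 4 months, where they were as well, it changed the calls of mrp-5 (adjusted p = 0.0498) and wht-5 (0.0592) among the named members. The mean of a gene's probe sets changed nothing, since each member has 1, and the 7 dim members have no value under the filter. How far signals stood over background is unknown, which limits what the dimmest members show.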
